A study of Mus musculus with 2 samples.

Results

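Mir101a and Mir101b are the genes of the mouse miR-101 family whose counts are described here, 2 of the 2202 microRNA genes that were counted in small RNA of whole heart. They were chosen by name, and with their counts in the same 2 libraries already known, so the difference between the libraries is given as a description and not tested. The libraries come from males of B6CASTF1/J, an F1 hybrid of C57BL/6J and CAST/EiJ, at 2 months of age, with no treatment given in the labels, and they are biological replicates 1 and 2 of 1 group. The descriptions number the males differently while the donor identifier is the same in both, so only the descriptions and the replicate numbers mark them as separate animals. Replicate 1 held 3650782 and replicate 2 held 3810675 sense reads of microRNA genes. Values are CPM, the count of a gene per 1000000 such reads, so that 1 read was worth 0.274 CPM in replicate 1 and 0.262 CPM in replicate 2.

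A microRNA gene is transcribed into a hairpin, from which a short strand of either arm is cut and loaded into an Argonaute protein. The loaded strand pairs with messenger RNAs mainly through its seed, the bases 2 to 8 from its 5′ end, and lowers their output. miR-101 is known for repressing the histone methyltransferase gene EZH2 and genes of autophagy, and it has been linked to limiting fibrosis in injured heart.

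The mature strands are shown first because both the pairing of the family and the counting of its reads turn on them. They are RefSeq's on GRCm38.p6, written 5′ to 3′ with the seed in capitals.
miR-101a-3p: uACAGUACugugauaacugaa
miR-101b-3p: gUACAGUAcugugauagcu
miR-101c: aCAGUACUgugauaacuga
miR-101a-5p: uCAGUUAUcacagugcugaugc
miR-101b-5p: uCGGUUAUcaugguaccgaugcu
The 3p strands of the members hold the same run of bases, but the listed strand of Mir101b starts 1 base earlier, so that its bases 2 to 8 differ from those of miR-101a-3p by that offset. The listed strand of miR-101c, from a further gene of the family, starts 1 base later than miR-101a-3p. At bases 2 to 8, none of these 5 seeds stood in another of the 1738 mature strands in the RefSeq table. The letters of the seeds of miR-101a-3p, miR-101b-3p and miR-101c do stand 1 base off in other strands of the family. Those of the 5p seeds do not, as the 5p strands of the members differ at base 3. Which 5′ end was present in the heart cannot be read from counts per hairpin.

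Over the 21 bases of miR-101a-3p, counted from 1 at its 5′ end, the Mir101b hairpin differs at 1 position, A16G. The 5p arms differ more, at 5 of 22 positions of miR-101a-5p, which are A3G, C11U, A12G, G15A and U17C. The strand that holds the family's seed thus differs at fewer positions than the strand opposite it in the hairpin.

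The hairpins are shown with their longest shared stretch in capitals, since a read inside it has no single place in the genome.
Mir101a: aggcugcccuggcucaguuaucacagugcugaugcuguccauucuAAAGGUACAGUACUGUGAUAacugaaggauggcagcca
Mir101b: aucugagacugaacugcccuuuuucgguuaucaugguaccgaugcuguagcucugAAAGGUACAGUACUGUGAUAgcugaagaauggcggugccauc
The stretch is 20 bases long and covers bases 1 to 15 of miR-101a-3p, so within this strand base 16 alone tells a read apart from Mir101b. Along their whole length the hairpins were 69.7% identical, at 69 of 99 aligned positions. Mir101a has 83 bases with 49.4% G or C and a predicted folding energy of -47 kcal/mol, and Mir101b has 97 bases with 47.4% G or C and -39.6 kcal/mol.

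The third gene, Mir101c, shares 19 bases with Mir101a, which are bases 2 to 20 of miR-101a-3p.
miR-101a-3p with that stretch in capitals: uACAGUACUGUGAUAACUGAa
miR-101b-3p with its longest stretch shared with Mir101c in capitals: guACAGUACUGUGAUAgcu
With Mir101b the shared stretch of Mir101c is 14 bases. A miR-101a-3p read that has lost its first and its last base therefore fits both Mir101a and Mir101c, while miR-101a-5p shares at most 7 bases in a row with the Mir101b hairpin. Reads with more than 1 place in the genome are counted for no gene in these files, and they made up 48.0% and 46.4% of all reads in replicates 1 and 2. How many of them were miR-101 reads cannot be read from the files, so the count of Mir101a is that of reads with a single place and may understate the strand.

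The loci lie on different chromosomes. Mir101a (ENSMUSG00000065451.1) is on the minus strand of mm10 chromosome 4 from 101346945 to 101347027. It overlaps an exon of E130102H24Rik, a lincRNA gene on the same strand, and starts 9708 bases downstream of the start of that gene. Mir101b (ENSMUSG00000065556.1) is on the plus strand of chromosome 19 from 29135279 to 29135375. It lies in an intron of Rcl1, a protein-coding gene known from the processing of ribosomal RNA, 33904 bases after the start of that gene and on its strand. Mir101c (ENSMUSG00000106183.1) is on the minus strand of chromosome 9 from 3038669 to 3038743 and overlaps no other annotated gene. No member has a close microRNA neighbour, since the nearest other microRNA gene is 1689115 bases from Mir101a and 1126066 bases from Mir101b, and both of these neighbours (Gm23366 and Gm24108) had 0 counts in either library. Taken as 3 counts, a count of 0 leaves room for 0.822 CPM in replicate 1 or 0.787 CPM in replicate 2.

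Both members were counted in both libraries, and Mir101b was above Mir101a in each. Mir101a had 139 reads in replicate 1 and 697 in replicate 2, or 38.1 CPM (exact Clopper-Pearson 95% interval 32.0 to 45.0) and 183 CPM (170 to 197). Mir101b had 381 and 1118 reads, which is 104 CPM (94.1 to 115) and 293 CPM (276 to 311). For both genes replicate 2 was the high library, by more than the counting intervals cover. Without molecular identifiers, the intervals cover counting error only. The mean was 110 CPM ± 102 for Mir101a and 199 CPM ± 134 for Mir101b (SD, n = 2 each). Replicate 2 of Mir101a, at 183 CPM, was above replicate 1 of Mir101b, at 104 CPM, so the genes' ranges overlap across libraries although their order is the same within each. Levels of different genes are per hairpin gene, not per length, and were not corrected for how well each strand is recovered in library preparation.

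**Figure D1:**
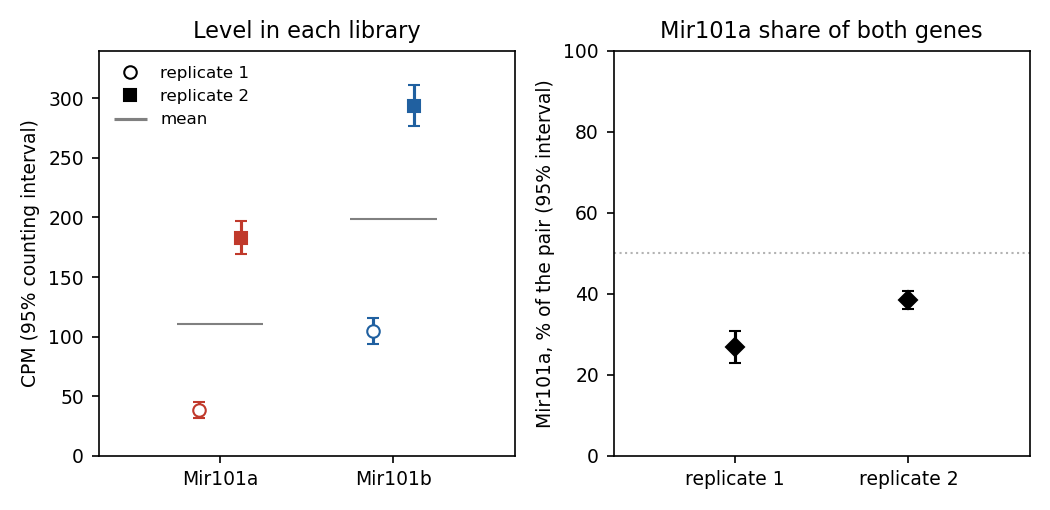
Left, CPM of Mir101a and Mir101b in replicate 1 (open circles) and replicate 2 (filled squares) with 95% counting intervals and the mean of both libraries as a line. Right, Mir101a as a percent of the reads of both genes with its 95% interval and a dotted line at equal shares; both points lie under that line, at 26.7% and 38.4%.

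Mir101c had 0 reads in replicate 1 and 2 in replicate 2, which is at or below the floor of 3 counts. Neither member had a read on the opposite strand, and the column without regard to strand held the same 139 and 697 reads for Mir101a and the same 381 and 1118 for Mir101b. All the counted miR-101 signal thus came from the sense strand of the members, apart from those 2 reads.

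Together Mir101a and Mir101b had 520 reads in replicate 1 and 1815 in replicate 2, which is 142 and 476 CPM, or 0.0142% and 0.0476% of the microRNA reads. The mean was 309 CPM ± 236 (SD, n = 2). By mean level Mir101b was gene 109 and Mir101a gene 141 of the 2202. Within the libraries, Mir101b was gene 137 in replicate 1 and gene 100 in replicate 2, and Mir101a was gene 187 and gene 116. The genes next to Mir101a in the order of means were Mir1249 at 114 CPM ± 53.2 and Mir152 at 112 CPM ± 51.6 above it, and Mir193b at 110 CPM ± 37.6 and Mir196b at 109 CPM ± 29.8 below it. Those next to Mir101b were Mir350 at 214 CPM ± 8.10 and Mir378d at 202 CPM ± 92.9 above it, and Mir330 at 191 CPM ± 30.8 and Mir222 at 179 CPM ± 84.8 below it (SD, n = 2 each). The distances in mean level to all 8 of these genes were smaller than the members' own SD, so the members' places in the order are not resolved.

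The ratio of the paralogs is free of library scaling, because both genes are read in the same library. In replicate 1, 26.7% of the reads of the pair were from Mir101a, with an exact 95% interval of 23.0 to 30.8%. In replicate 2 this share was 38.4%, with an interval of 36.2 to 40.7%. Mir101b thus exceeded Mir101a by 2.73-fold in replicate 1 and 1.60-fold in replicate 2. The log2 ratio of Mir101a to Mir101b, with 0.5 added to each count, was -1.45 and -0.68, a mean of -1.07 ± 0.54 (SD, n = 2). The order was the same in both libraries, while its size moved by 0.77 on the log2 scale, with a 95% counting interval of 0.46 to 1.10. The share of Mir101a may be off in either direction. It leaves out any Mir101a reads that were placed at both Mir101a and Mir101c. Reads of either member that lie inside the stretch shared by both hairpins are left out as well.

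Between the libraries, both members were more than 2-fold higher in replicate 2. Mir101a was 4.80-fold higher by CPM, with a 95% counting interval of 4.00 to 5.81, and its log2 ratio with 0.5 CPM added was 2.25. Mir101b was 2.81-fold higher, with an interval of 2.50 to 3.17, and its log2 ratio was 1.49. The sum of both was 3.34-fold higher (3.03 to 3.69). Of the 257 genes at a mean of at least 10 CPM, 30 were at least 2-fold higher in replicate 2 (11.7%) and 25 at least 2-fold higher in replicate 1 (9.73%), which is 55 genes or 21.4% in either direction. The median log2 ratio of these genes was 0.02, and their median absolute log2 ratio was 0.45. Both of 2 members fall among the 30, and nothing is read from that count, since the members were chosen with this difference in view. Ordered by the log2 ratio, Mir101a was gene 2 and Mir101b gene 13 of the 257. The replicates belong to 1 group, so these ratios compare 2 libraries and no condition. In whole heart, fewer cells of a type and less RNA per cell cannot be told apart.

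**Figure D2:**
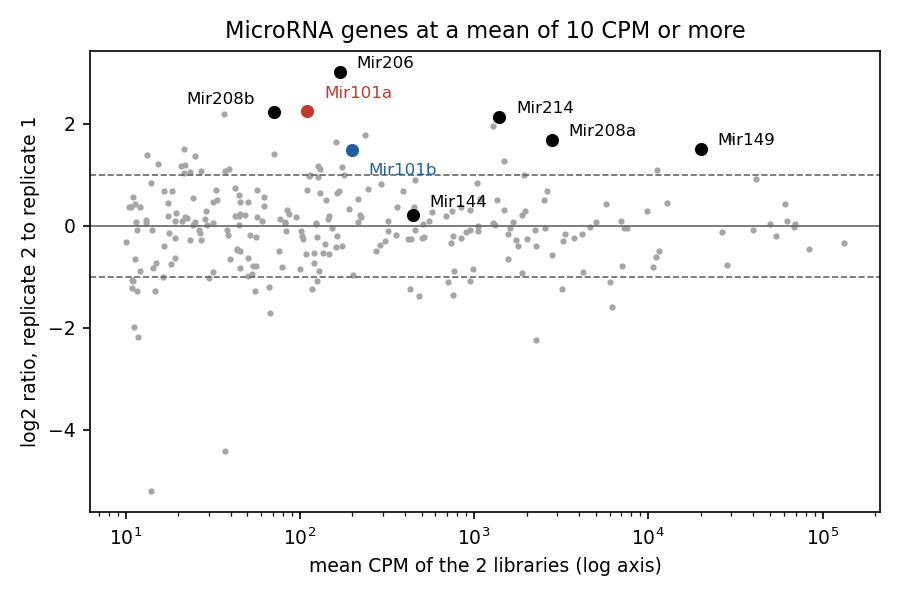
Each point is a microRNA gene at a mean of 10 CPM or more (257 genes), with the mean CPM of the 2 libraries on a log axis and the log2 ratio of replicate 2 to replicate 1. Dashed lines mark 2-fold; Mir101a at 2.25 and Mir101b at 1.49 lie above the upper line, and Mir144 at 0.21 lies near 0.

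Other scalings left both ratios within their counting intervals, with the members' counts the same under each. The log2 ratio of Mir101a ran from 2.20 to 2.31 and that of Mir101b from 1.44 to 1.55 over TMM library sizes, DESeq2 size factors, the uniquely mapped reads as total, a total without the most abundant gene, a median ratio set to 0, counts without regard to strand and a pseudocount of 1.

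**Figure D3:**
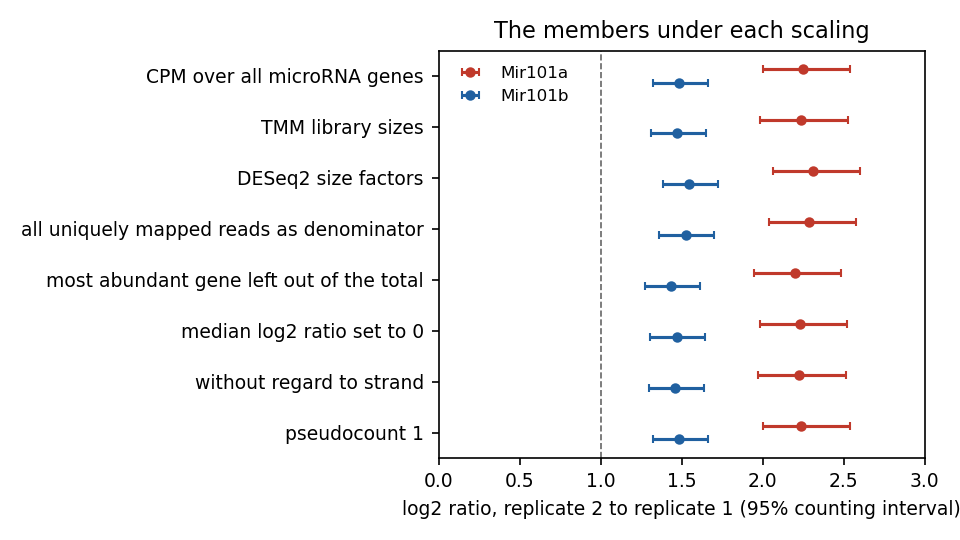
The log2 ratio of replicate 2 to replicate 1 for Mir101a (red) and Mir101b (blue) under CPM over all microRNA genes and 7 alternatives, with 95% counting intervals; the dashed line marks 2-fold. All points of Mir101a lie between 2.20 and 2.31 and all of Mir101b between 1.44 and 1.55.

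The genes whose ratio between the libraries was closest to that of Mir101a, among the 146 genes at a mean of at least 100 CPM, were Mir214, Mir497 and Mir24-2. Their log2 ratios were 2.13, 1.96 and 1.77, at distances of 0.12, 0.29 and 0.48 from that of Mir101a. Mir214, which is cut from the Dnm3os transcript and known from fibroblasts, was at 519 and 2269 CPM in replicates 1 and 2. Mir497, of the family of miR-15 and miR-16, was at 528 and 2053 CPM, and Mir24-2 at 106 and 365 CPM. Mir497 and Mir24-2 had 0 counts in the column without regard to strand, where reads that lie in more than 1 gene are dropped. Closest to Mir101b were Mir149, Mir339 and Mir208a, with log2 ratios of 1.50, 1.65 and 1.68 at distances of 0.01, 0.16 and 0.20. Mir208a, hosted by the cardiac myosin gene Myh6, was at 1329 and 4265 CPM. Among all 257 genes at a mean of at least 10 CPM, a level chosen after the values were seen, the closest to Mir101a were Mir208b, at 24.7 and 117.6 CPM and a distance of 0.02, then Mir215 at 0.07 and Mir214. Closest to Mir101b at that level were Mir149, Mir381 at 0.02 and Mir500 at 0.09. This likeness rests on 1 ratio over 2 libraries.

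The members' change was set beside that of other paralogs with both genes at a mean of at least 10 CPM, 13 pairs besides Mir101a and Mir101b. Only symbols that end in the letter a or b right after the number were paired. Paralogs with a further copy number, such as Mir26a-1, Mir26a-2, Mir29b-1 and Mir29b-2, were left out, so the ranks and range below do not cover them. Between the libraries, Mir26a-1 had a log2 ratio of -4.41, Mir26a-2 of -0.78 and Mir26b of -0.77. In all 14 pairs the order of the genes was the same in both libraries, with the b gene above the a gene in 5 pairs, that of Mir101 among them. Mir148a and Mir148b, at 300 and 293 reads in replicate 1, were too close there for their order to be resolved. The shift of the ratio of Mir101a to Mir101b, 0.77, was eighth of 14 in size, and the absolute shifts of the other 13 pairs ran from 0.03 to 1.86 with a median of 0.84. The 3 pairs with the largest shifts were Mir106a and Mir106b at -1.86, Mir15a and Mir15b at 1.84, and Mir130a and Mir130b at 1.59. Both genes were at least 2-fold higher in replicate 2 in 2 of the 14 pairs, Mir101a with Mir101b and Mir208a with Mir208b, whose log2 ratios were 1.68 and 2.23. Of all 257 single genes, 11.7% were that much higher. The Mir101 pair was chosen with its difference known, so nothing is read from this count of pairs. Members of 1 pair share sequence, so the pairs are not independent measurements of 2 genes.

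**Figure D4:**
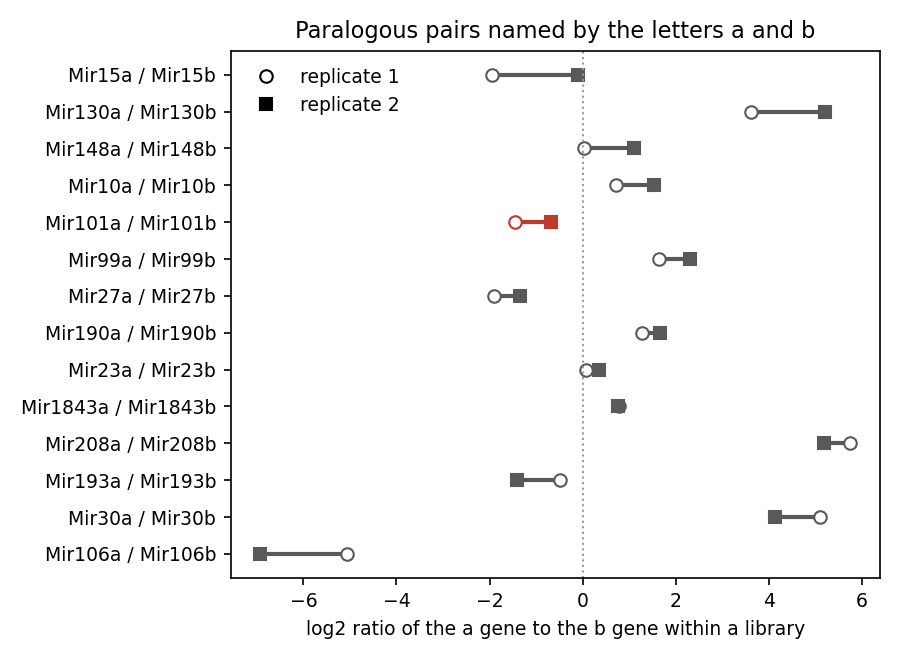
The log2 ratio of the a gene to the b gene in replicate 1 (open circles) and replicate 2 (filled squares) for 14 pairs, sorted by the shift between libraries, with a dotted line at equal counts. Mir101a and Mir101b (red) move from -1.45 to -0.68, and no pair crosses the line, though Mir148a and Mir148b start close to it at 0.03.

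The bases ACAGUA, which are bases 2 to 7 of miR-101a-3p, stood at the same place in 2 of 1738 mature strands (0.115%), miR-101a-3p and miR-144-3p, and anywhere in the strand in 9 (0.518%). Only the strand of the mature RNA was searched. With an offset of 1 base they also stood in miR-101b-3p, miR-101c, miR-199a-3p and miR-199b-3p. The relatives are shown with these 6 bases in capitals.
miR-144-3p: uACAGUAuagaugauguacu
miR-199a-3p: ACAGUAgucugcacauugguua
Mir144, known from red blood cells, was at 411 and 477 CPM in replicates 1 and 2, a log2 ratio of 0.21, within 2-fold where both members were past it, a difference that was not tested. It was above the sum of both members in replicate 1, 411 against 142 CPM, and about level with it in replicate 2, 477 against 476 CPM. Mir199b had 59 and 71 reads, Mir199a-2 had 19 and 6, and Mir199a-1 had 0 and 1. The 3 Mir199 genes share their 3p strand, so reads of it enter no gene and these counts are uncertain.

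The other genes with roles near those of miR-101 are given by lists, whose counts are to be read against the shares over all 257 genes, 11.7% at least 2-fold higher in replicate 2, 9.73% in replicate 1 and 21.4% in either. Of 17 genes linked to cardiac fibrosis, 16 were in the files and 12 were at a mean of at least 10 CPM, of which 2 were at least 2-fold higher in replicate 2, 2 at least 2-fold higher in replicate 1 and 8 within 2-fold, with a median log2 ratio of 0.10. The 2 higher in replicate 2 were Mir214 and Mir24-2, and the 2 higher in replicate 1 were Mir21a at -1.24 and Mir26a-1 at -4.41. The 3 most abundant were Mir29a, known to repress collagen genes, at 10919 and 14824 CPM, Mir21a at 4504 and 1908 CPM, and Mir214. Of 13 genes linked to autophagy, 12 were at that level, with Mir222 at 1.00 and Mir93 at -1.10 past 2-fold, 10 within it and a median of -0.24, a share past 2-fold near that over all genes. Its most abundant genes were Mir30a at 13405 and 8806 CPM, Mir30d at 13540 and 7760 CPM, and Mir93 at 8249 and 3854 CPM. Of 10 other genes linked to the control of EZH2, 9 were at that level, with Mir214 2-fold higher in replicate 2, Mir26a-1 and Mir138-1 (-1.29) 2-fold higher in replicate 1, 6 within 2-fold and a median of -0.64. Its most abundant genes were Mir26b at 35782 and 20913 CPM, Mir98 at 2174 and 1826 CPM, and Mir214. Some genes stand on more than 1 list, and the counts of the Mir24, Mir26a, Mir29b, Mir30c, Mir133a, Mir138, Mir199a, Mirlet7a-1 and Mirlet7c-1 genes are uncertain because they share a mature strand or a long stretch with other genes.

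Marker genes of the cell types of the heart moved unequally between the same libraries, and their part in the members' ratios was not tested. The 7 heart muscle genes had summed levels of 4032 and 6942 CPM in replicates 1 and 2, and of the 4 at a mean of at least 10 CPM, 2 were at least 2-fold higher in replicate 2 (11.7% over all genes), Mir208a and Mir208b, while Mir499 was at -0.05 and Mir1a-2 at -0.80. The copies of Mir1a share 28 bases in a row and those of Mir133a 31, and reads within these stretches are missing from this sum. The skeletal muscle genes Mir206 and Mir133b summed to 43.0 and 308 CPM, nearly all of the change from Mir206, at 3.02. Mir133b was at -0.18, but from only 22 and 20 reads, a mean of 5.64 CPM and so under 10 CPM. The 4 fibroblast genes summed to 5029 and 4179 CPM, with Mir199a-1 at 0 in replicate 1. Mir214 and Mir21a, the 2 at a mean of at least 10 CPM, were past 2-fold in opposite directions (21.4% over all genes in either). Mir199a-2, under that level with 19 and 6 reads, was at -1.46. The endothelial genes summed to 52212 and 70229 CPM, with Mir126b at 0 in replicate 1. The smooth muscle genes summed to 54611 and 53284 CPM, with log2 ratios of 0.04 for Mir143 and -0.90 for Mir145a. Leukocyte genes, 6 of 7 found, summed to 10634 and 8670 CPM, with Mir142 past 2-fold higher in replicate 1 at 1091 and 428 CPM (-1.35). The erythroid genes, 3 of 4 found, summed to 3222 and 2960 CPM, with Mir451a at -0.66, Mir486 at 0.52 and Mir144 at 0.21. The liver gene Mir122 was at 142 and 97.9 CPM. No list other than that of skeletal muscle was more than 2-fold apart in its sum.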

How the data were processed

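Small RNA of whole heart was sequenced as 2 libraries of 1 group. The authors deposited raw read counts per microRNA gene, 1 file per library, placed on mm10 with GENCODE M21 per the deposited text beside each file. The aligner and its settings are not given in the sources used here. Of the 3 count columns, without strand, on the gene strand and opposite, column 3 of each file (gene strand) was used. The 4 rows that name no gene held 64.8% and 63.6% of reads in replicates 1 and 2 and stayed out of totals. Reads of the CAST/EiJ allele were placed on the same mm10 sequence, and strain differences in the hairpins were not examined.

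CPM was computed over all 2202 gene rows, and log2 ratios used CPM + 0.5. Genes at a mean of at least 10 CPM were compared, and 2-fold was the size named. Intervals are exact binomial (Clopper-Pearson) at 95%, or exact conditional for the shift of the pair. No test between libraries was made. The members, lists and the rule for named genes (members, seed relatives, hosts and neighbours, 2 genes above and below in level, 3 closest in ratio, 3 largest pair shifts, list members) were chosen with earlier results of these data known. RefSeq's table gave a hairpin for 968 of the 2202 genes by symbol. Hairpins were folded with RNAfold (ViennaRNA 2.7.2). Python 3.11.15, scipy 1.17.1 and Biopython 1.88 were used, with edgeR 4.0.16 and DESeq2 1.42.0 in R 4.3.3 for scaling alternatives only. The ratio and its interval were checked on simulated counts that varied by counting error alone. The check therefore does not cover differences between animals or library preparations.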

Additional observations from a re-analysis of the deposited data

How the results depend on the processing

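Both members kept their direction and stayed past 2-fold in replicate 2 under each of the 7 alternatives tried for their ratios. None of these changed the members' counts, and the totals of the 2 libraries stayed close to each other, so the ratios had little room to move. The levels, with each replicate left out in turn, were 38.1 to 183 CPM for Mir101a and 104 to 293 CPM for Mir101b, and the log2 ratio of the pair was -1.45 to -0.68. The DESeq2 size factors of the libraries came out equal. The number of genes at least 2-fold apart was 55 of 257, against 196 of 722 with no filter on low values and 27 of 146 at a mean of 100 CPM or more, where fewer genes are compared. By ratio, Mir101a was gene 3 with no filter and gene 2 under the other settings, and Mir101b was gene 37 with no filter and gene 10 to 14 under the others. Apart from the left-out replicates, which with n = 2 cannot fall outside 1 SD of the mean, all 28 alternative values of the members stayed within the SD or the counting interval. For the levels this bound is wide, an SD of 102 on a mean of 110 CPM for Mir101a and 134 on 199 CPM for Mir101b. Without regard to strand the pair's counts were the same, so its ratio and shift could not move. The shift could not move at a mean of 100 CPM or more either. Of 6 alternative gene counts, 4 were within 1.5 times the 55. The counting interval of Mir101a in replicate 1, 32.0 to 45.0 CPM from 139 reads, was narrower than the distance between its libraries. No paired analysis was possible because the libraries form 1 group.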

Other observations

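The hairpin's content of G and C was set beside the ratio between the libraries over the 257 genes at a mean of at least 10 CPM, as a description chosen after the values were seen. Across genes, which share the 2 libraries and are not independent, Spearman's rho was 0.10 and Pearson's r 0.07. Both members stand in the second of 4 groups of genes by this content (44.3 to 50.0%, 65 genes), whose median log2 ratio was -0.09, with 8 genes at least 2-fold higher in replicate 2 and 7 at least 2-fold higher in replicate 1.

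The whole sequence of miR-101a-3p stood in the GENCODE M21 transcripts of 2 genes, Mir101a and E130102H24Rik, whose exon it overlaps, and that of miR-101b-3p in Mir101b alone. The 19 bases of miR-101c stood in 3 genes, Mir101a, E130102H24Rik and Mir101c. On the opposite strand of transcripts none of the 3 sequences was found.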
